A study of Rattus norvegicus with 4 samples.

Results

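The aryl hydrocarbon receptor (AhR) axis and the enzymes that activate the cooked-meat carcinogen PhIP were examined in rat ventral prostate. The set held 10 genes: Ahr, Arnt, Tiparp, Cyp1a1, Cyp1a2, Cyp1b1, Aldh3a1, Nat1, Nat2 and Sult1a1. All probe sets that the platform annotation assigns to 1 of these symbols alone were taken, dim ones included, which gave 13 of the 31042 probe sets analysed. The annotation names 1 gene symbol for 20832 probe sets. Male F344 rats, a laboratory strain, were 6 weeks old, and the ventral lobe was taken 2 days after exposure. The PhIP group (2-amino-1-methyl-6-phenylimidazo[4,5-b]pyridine) received 300 mg/kg and the control group received none. The labels give no route or vehicle. Each group had 4 rats, pooled in pairs before hybridisation to an Affymetrix array, which left 2 arrays a group: control 1, control 2, PhIP 1 and PhIP 2. A p-value here therefore measures the spread between pools of 2 rats.

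AhR is a ligand-activated transcription factor held in the cytosol by a chaperone complex. After binding a planar aromatic ligand it enters the nucleus, pairs with ARNT and binds a short DNA element, the xenobiotic response element, at target genes such as Cyp1a1, Cyp1a2, Cyp1b1, Aldh3a1 and Tiparp. PhIP itself is inert towards DNA: CYP1 enzymes, CYP1A2 of the liver above all, hydroxylate its amino group, and acetyltransferases (NAT1, NAT2) or sulfotransferases (SULT1A1) esterify the product to a form that binds guanine. The hydroxylated product can travel in the blood from the liver to other organs, where esterification may take place. The study compared exposed with unexposed glands, and the questions here are which of these enzymes gave a signal in the gland and whether genes of the AhR response differed after PhIP.

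The core of the response element, GCGTG, was searched for in the promoters, and stretches that hold it are printed for Cyp1b1, Tiparp and Ahrr. RefSeq promoter windows of assembly GRCr8 (250 bases before to 50 after the start) were found for 6 of the 10 genes: Ahr, Arnt, Tiparp, Cyp1a2, Cyp1b1 and Sult1a1. GCGTG was searched on both strands, and so was the longer form TNGCGTG, which contains it. The core was in 3 of the 6 windows, and 29.7% of all 33469 windows of the table hold it. The windows of Ahr, Cyp1a2 and Sult1a1 held 0 cores. Bases outside the windows were not searched. The Cyp1b1 window held 2 cores, of which the one beginning at -20 was also a TNGCGTG match, a form found in 4.89% of windows. The Tiparp window held 1 core and so did that of Arnt, which begins at -42. Ahrr, which encodes the AhR repressor and is not among the 10 genes, held 3 cores, 1 of them in the longer form. The stretches run 5′ to 3′ on the plus strand, with each core, or its reverse complement CACGC, in capitals. They are chr6:21094459-21094564 (Cyp1b1, -106 to -1), chr2:152063608-152063662 (Tiparp, -161 to -107) and chr1:30822052-30822191 (Ahrr, -167 to -28), all of GRCr8.
Cyp1b1: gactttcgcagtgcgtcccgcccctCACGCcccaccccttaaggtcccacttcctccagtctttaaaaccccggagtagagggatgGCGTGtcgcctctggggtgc
Tiparp: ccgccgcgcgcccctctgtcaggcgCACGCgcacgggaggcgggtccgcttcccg
Ahrr: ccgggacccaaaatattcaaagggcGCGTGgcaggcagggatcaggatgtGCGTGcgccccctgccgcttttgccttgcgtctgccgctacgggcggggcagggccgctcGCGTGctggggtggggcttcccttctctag
A match is a description of the letters and not evidence of a bound site.

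Values are MAS5 signals in arbitrary units, scaled by the authors so that every array has the same trimmed mean. The summed signal of 10 luminal epithelial genes was 20852.9 and 19536.9 for the controls against 22626.8 and 22776.1 after PhIP. Of these genes 9 were higher in PhIP without overlap, against 19.8% of all tested. At an unadjusted limma p under 0.05, 6 of them were higher (5.36% of all tested), and 0 passed the adjusted threshold. The remaining gene of the 10, that of the secretory protein probasin (Pbsn), read 4273.0 to 4898.1 with overlap. The 3′ to 5′ ratio of actin, a measure of RNA integrity, was highest on control 2 (5.71, against 3.49 to 4.18 elsewhere). That array also had the highest skeletal muscle signal, with a sum over 6 genes of 1602.1, against 904.4 on control 1, 502.5 on PhIP 1 and 420.2 on PhIP 2. PhIP 2 stood apart by its liver transcripts, which bear on Cyp1a2 and are described with it. Stromal markers were lower in PhIP, as described with Cyp1b1.

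How many of the 10 genes gave a signal clear of background depended on the level set for it. Ahr, Cyp1a1, Cyp1a2 and Aldh3a1 did so at none of the levels used. No detection calls were used, so each probe set was set against 38 probe sets of 30 genes that belong to other tissues, such as liver, retina, pituitary, testis and pancreas. A probe set counted as detected where its signal exceeded the 90th percentile of these on every array, a level of 19.9, 19.1, 16.1 and 51.2 on control 1, control 2, PhIP 1 and PhIP 2. By this rule 2 of 13 probe sets were detected, that of Sult1a1 and the brighter one of Nat1. The high level on PhIP 2 came with the liver genes of the reference: without its 8 liver genes that level was 10.9, and 7 probe sets of 5 genes were detected. These were Cyp1b1, Nat1 (both probe sets), Nat2, Sult1a1 and Tiparp (both). The same 5 genes were detected without PhIP 2. Probe sets differ in how strongly they bind their targets, so signals rank no gene's RNA above another's.

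**Figure D1:**
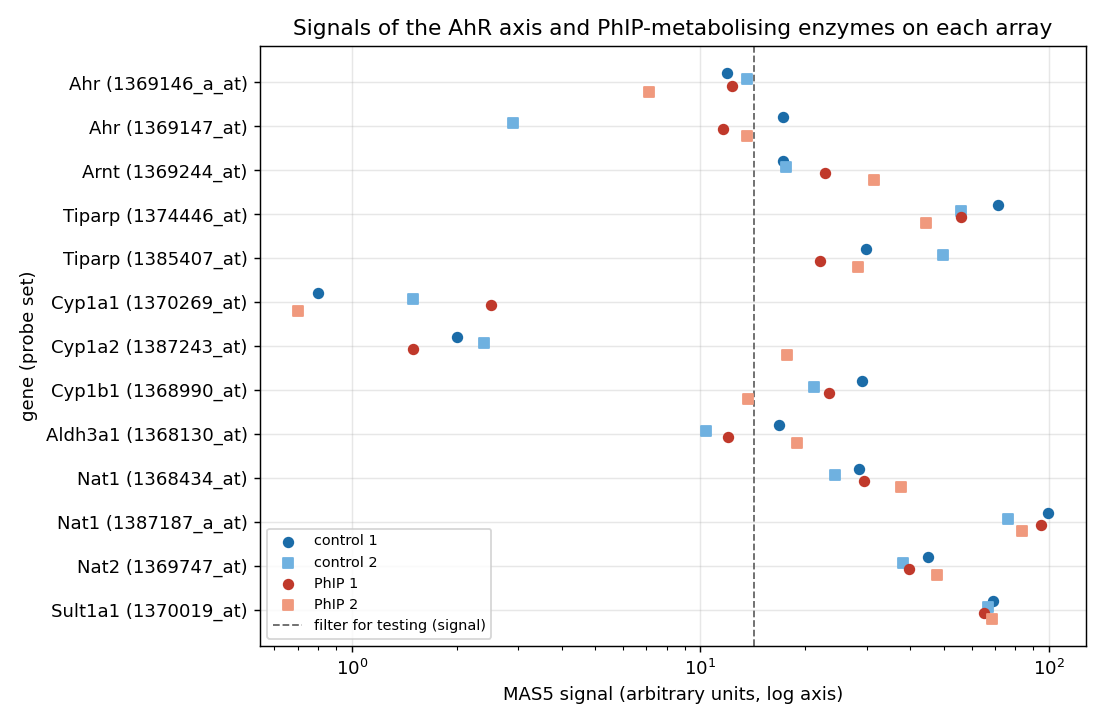
MAS5 signal (log axis) of the 13 probe sets on each of the 4 arrays, each a pool of 2 rats; the dashed line marks the signal of 14.3 at the filter for testing. Cyp1a1 on all 4 arrays and Cyp1a2 on 3 lie near the bottom of the range, while Sult1a1 lies between 64.9 and 68.8 on all 4 arrays.

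None of the 10 genes passed the test of PhIP against control. Signals were compared as log2(signal + 10), which understates the change of dim genes, and 9 of the 13 probe sets, from 7 genes, lay above the 40th percentile of mean signal and were tested. With limma, 0 of these 9 passed an adjusted p of 0.05, against 0.0268% of 18625 probe sets tested. At an unadjusted p under 0.05 there were also 0 of 9, against 13.0% of all tested. Adjusted p ran from 0.481 to 0.961. The groups did not overlap for 3 of the 9, against 45.8% of all: 2 were higher in PhIP (19.8% of all) and 1 was lower (26.0% of all). Leaving out control 1 brought 12.5% of all tested past the adjusted threshold and leaving out control 2 brought 2.48%, with 0 of the 9 in each case. Without PhIP 1 or without PhIP 2, 0 of all tested passed with limma, and 1097 and 1046 had an unadjusted p under 0.05. In such fits the lone array of a group is assumed to vary like the arrays of the other group. The median log2 fold change of the 9 was 0.032, and that of all tested was −0.025. A p above the threshold does not show that a gene stayed the same, so each tested estimate carries its 95% interval.

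**Figure D2:**
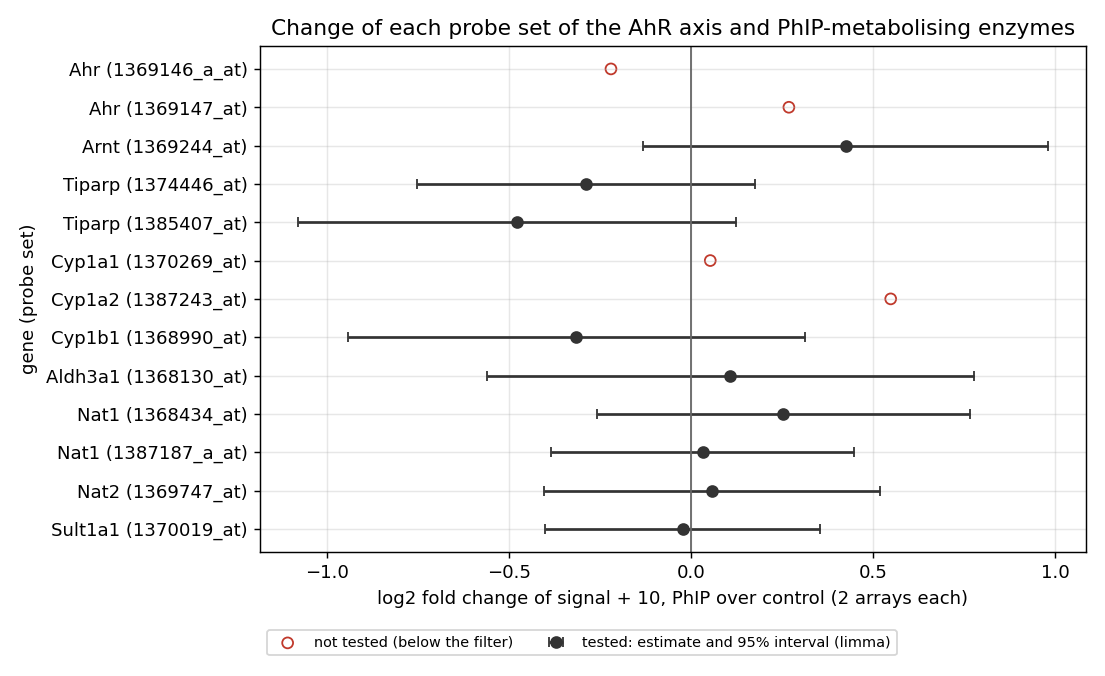
Log2 fold change of signal + 10, PhIP over control (2 arrays each), for the 13 probe sets; filled points carry limma's 95% interval and open points are the 4 probe sets below the filter, which were not tested. Every interval includes 0, and the narrowest is that of Sult1a1 (−0.40 to 0.36).

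The mean signals of both probe sets of the receptor lay below the filter. One probe set of Ahr read 11.9 and 13.6 on the control arrays against 12.3 and 7.1 on the PhIP arrays. The other read 17.2 on control 1, 2.9 on control 2, 11.6 on PhIP 1 and 13.6 on PhIP 2. The groups overlapped in both, and the control arrays of the second were its highest and its lowest. The log2 fold changes had opposite signs (−0.22 and 0.27, not tested). Ahr transcript was not detectable with these probe sets, which does not show that it is absent.

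Arnt, the nuclear partner of AhR and of the hypoxia factors, read 17.3 and 17.6 on the control arrays. After PhIP it read 22.8 and 31.4. Both PhIP arrays were above both control arrays, as for 19.8% of all tested probe sets. Both control values lay below the detection levels of those arrays. Arnt was detected only when the 75th percentile of the reference set the level. The log2 fold change was 0.42 ± 0.24 (SE; 95% interval −0.13 to 0.98; limma adjusted p = 0.492). It was 0.26 without PhIP 2 and 0.59 without PhIP 1, and the unadjusted p was under 0.05 in none of the 4 fits that left out an array. Under 4 other scalings it was 0.56 to 0.65, with an unadjusted limma p of 0.0249 to 0.0476 and an adjusted p of 0.171 to 0.416.

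Tiparp encodes an ADP-ribosyltransferase that is induced by AhR and in turn marks AhR for breakdown, and it is among the most direct readouts of the receptor. Its brighter probe set read 71.1 and 55.7 in the control pools against 55.9 and 44.3 in the PhIP pools. For the dimmer one the control values were 29.8 and 49.7, and those after PhIP were 22.0 and 28.3. The groups overlapped in the first and did not overlap in the second, with PhIP on the lower side. The log2 fold changes were −0.29 ± 0.20 (95% interval −0.75 to 0.18; limma adjusted p = 0.574) and −0.48 ± 0.26 (−1.08 to 0.12; limma adjusted p = 0.481). The upper ends of the intervals were thus 0.18 and 0.12 under the authors' scaling. Other scalings brought both estimates nearer to 0. With the hybridization controls they were −0.059 (brighter) and −0.25 (dimmer), and with median centring −0.15 and −0.34. The estimate of the brighter probe set ran from −0.44 without control 2 to −0.14 without control 1. That of the dimmer one was −0.77 without control 1 (limma adjusted p = 0.0736) and −0.19 without control 2. Over the 4 arrays the genes whose centred log2 values lay nearest to the dimmer probe set were Thoc5, Rassf7 and Ildr2. Their Euclidean distances were 0.027, 0.047 and 0.055, among 14194 probe sets of other named genes tested. With only 4 arrays and so many candidates, such nearness cannot tell shared regulation from coincidence. The brighter probe set was not compared in this way.

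Of the CYP1 enzymes that hydroxylate PhIP, Cyp1a1 and Cyp1a2 were not detected under any form of the detection rule. Cyp1b1 was not detected against the full reference on all arrays. It was detected without the liver genes of the reference, and without PhIP 2. Cyp1a1, a strongly inducible AhR target in many tissues, stood at 0.8 and 1.5 in the controls, 2.5 on PhIP 1 and 0.7 on PhIP 2. Between 3.64% and 13.5% of all probe sets were dimmer than it on each array. The groups overlapped, and no fold change can be read at this level. Ahrr, another induced target, was also at the bottom of the range, at 0.9 and 0.7 without PhIP and 0.6 and 0.2 with it.

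Cyp1b1, which hydroxylates PhIP and oestrogens and is expressed in many mesenchymal cells, gave 29.1 and 21.2 on the control arrays, 23.3 on PhIP 1 and 13.7 on PhIP 2. The groups overlapped, and PhIP 2 was the lowest. The log2 fold change was −0.31 ± 0.27 (95% interval −0.94 to 0.31; limma adjusted p = 0.646), and −0.069 without PhIP 2. Stromal markers were lower on both PhIP arrays, while the summed luminal signal was higher there. The summed signal of 10 smooth muscle genes was 6892.6 and 6929.5 for the controls against 4196.6 and 4149.1 after PhIP, and 9 of the 10 were lower at an unadjusted limma p under 0.05, against 7.61% of all tested. For 9 fibroblast genes the control sums were 12390.3 and 9734.5 and the PhIP sums 7397.0 and 7401.7, and 7 of 9 were lower at that p. None of these passed the adjusted threshold with all arrays. With single arrays left out the median log2 fold change was −0.78 to −0.72 for smooth muscle genes and −0.65 to −0.48 for fibroblast genes. The part of stroma in the Cyp1b1 values was not tested, and in bulk tissue fewer cells of a type and less RNA per cell cannot be told apart.

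Cyp1a2, the main PhIP hydroxylase of the liver, was raised on a single array relative to the other arrays. It stood at 2.0 and 2.4 in the controls, 1.5 on PhIP 1 and 17.7 on PhIP 2. The PhIP 2 value lay below the detection level there (51.2) and above that without liver genes in the reference (10.9). PhIP 2 was the only array above 2.4, and PhIP 1 was below both controls. The log2 fold change was 0.55 with all arrays, 1.18 without PhIP 1 and −0.085 without PhIP 2. Its mean signal lay below the filter, and in the fit without a filter its limma adjusted p was 0.691.

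Liver transcripts were high on that same array. Albumin (Alb), the main secreted protein of hepatocytes, read 125.3 and 121.5 in the controls, 150.4 on PhIP 1 and 734.7 on PhIP 2. The liver cytochrome gene Cyp3a2 had 14.9 and 17.0 in control, 15.5 in PhIP 1 and 63.6 in PhIP 2. Cyp2c11, the male-specific cytochrome of rat liver, had 16.5 and 18.2 in control, 12.9 in PhIP 1 and 50.8 in PhIP 2. The apolipoprotein gene Apoc1 stood at 4.3 and 14.1 in control, 12.6 in PhIP 1 and 52.3 in PhIP 2. Over 32 probe sets of 26 hepatocyte genes, a list chosen after the values were seen, 27 were highest on PhIP 2, which was the highest array for 19.4% of all probe sets. Their summed signal was 598.0 and 637.8 in control, 602.3 in PhIP 1 and 2103.7 in PhIP 2. None was at 0, but the liver aminotransferase Tat did not exceed 0.9 on any array. The 12 probe sets for the 8 liver genes already in the other-tissue reference are among the 32, and 9 of the 12 were highest on PhIP 2. Of the 26 probe sets for the reference's other tissues, 5 were highest there. The part of liver RNA in the Cyp1a2 value was not tested. On PhIP 1, where the summed hepatocyte signal lay between those of the controls, Cyp1a2 was at 1.5.

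**Figure D3:**
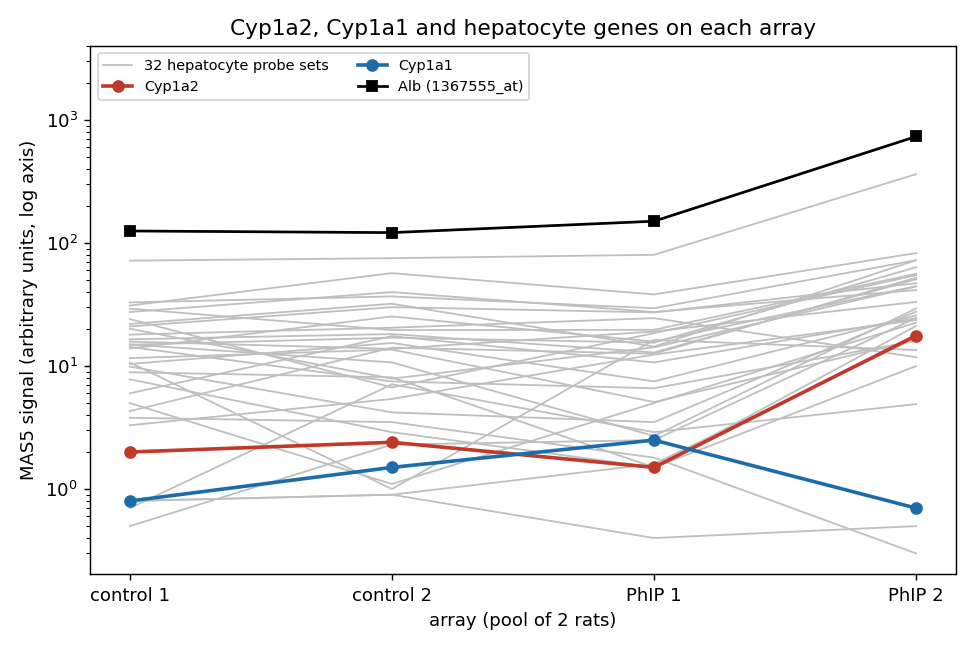
MAS5 signal (log axis) on each array of Cyp1a2 (red), Cyp1a1 (blue), albumin (black) and 32 hepatocyte probe sets (grey); lines only link the values of 1 probe set. Cyp1a2 is at 17.7 on PhIP 2, where albumin (734.7) and most grey lines are also highest, and Cyp1a1 is at 0.7 there.

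Aldh3a1 encodes an aldehyde dehydrogenase of the AhR battery. Control 1 and 2 read 16.8 and 10.4, and PhIP 1 and 2 read 12.0 and 18.9, close to the filter. The groups overlapped. The log2 fold change was 0.11 ± 0.29 (95% interval −0.56 to 0.78; limma adjusted p = 0.892), and −0.088 without control 2 or without PhIP 2.

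The esterifying enzymes include both probe sets that were detected against the other-tissue reference. Sult1a1, the phenol sulfotransferase that forms the sulfate ester of hydroxylated PhIP, gave 68.8 and 66.9 in the control pools and 64.9 and 68.4 in those exposed. The groups overlapped. The log2 fold change was −0.023 ± 0.16 (95% interval −0.40 to 0.36; limma adjusted p = 0.961), and its sign turned under 4 other scalings (0.016 to 0.21).

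Nat1, an arylamine acetyltransferase, gave 99.2 and 76.0 in the control pools with its brighter probe set, and 94.9 and 83.6 in the exposed pools. Both PhIP arrays lay between the controls, and the log2 fold change was 0.032 ± 0.18 (95% interval −0.38 to 0.45; limma adjusted p = 0.951). With the dimmer probe set the controls read 28.5 and 24.3, below both PhIP values of 29.4 and 37.7 (0.25 ± 0.22; −0.26 to 0.77; limma adjusted p = 0.647). Nat2, the neighbouring and closely related acetyltransferase gene, stood at 45.0 on control 1, 38.1 on control 2, 39.7 on PhIP 1 and 47.7 on PhIP 2. The groups overlapped, and the log2 fold change was 0.058 ± 0.20 (−0.40 to 0.52; limma adjusted p = 0.917). Because the transcripts of these neighbours resemble each other, signals of their probe sets may be shared and are uncertain as to the gene.

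The wider AhR pathway was described with lists of related genes, each gene by its brightest tested probe set. The list called AhR partners also holds the hypoxia factor genes Hif1a and Epas1, whose products pair with ARNT. Of its 9 tested genes, 0 passed the adjusted threshold. At an unadjusted limma p under 0.05 there were 0 higher (5.36% of all tested) and 1 lower (7.61% of all tested). The median log2 fold change of the 9 was 0.013. The chaperone gene Hsp90ab1, whose product holds AhR in the cytosol, read 2361.9 and 2213.2 in the controls against 2420.8 and 2382.9 after PhIP (0.071 ± 0.071). Its dimmer probe set gave 0.27 ± 0.14, with overlap. The gene on the lower side was Arnt2, a paralogue of Arnt, whose control values were 24.2 and 26.8 and PhIP values 13.8 and 13.4 (−0.59 ± 0.23; limma adjusted p = 0.354). Another Arnt2 probe set was too dim to test.

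Of other tested genes reported to respond to AhR, 2 had a log2 fold change above 0 and 5 below. Without overlap, 1 was higher (19.8% of all tested) and 3 were lower (26.0% of all tested). Of 7 tested, 0 passed the adjusted threshold, and 1 was higher (5.36% of all) and 2 were lower (7.61% of all) at an unadjusted limma p under 0.05, with 0 to 2 lower without single arrays (0 without PhIP 1). The median was −0.26, and −0.078 without PhIP 1. Nqo1, a quinone reductase of the AhR and NRF2 batteries, read 45.1 and 30.5 without PhIP and 23.7 and 36.2 with it, with overlap (−0.26 ± 0.26; limma adjusted p = 0.684). Nfe2l2, which encodes NRF2, the regulator of antioxidant genes, stood at 422.7 and 418.0 without PhIP and at 629.6 and 632.8 with it. Its log2 fold change was 0.58 ± 0.096 (95% interval 0.35 to 0.80; limma adjusted p = 0.0832), and the adjusted p was 0.00185 without control 1, 0.00663 without control 2 and 0.0229 after scaling to the hybridization controls, which brought 0.886% of all tested past the threshold. It was 0.641 without PhIP 1, 0.749 without PhIP 2, 0.113 with the replicate block and 0.271 with eBayes without trend. On the lower side were the amino acid transporter gene Slc7a5 (−0.68 ± 0.19; limma adjusted p = 0.221, from 0.00575 without control 1 to 0.844 without PhIP 1) and the xanthine oxidoreductase gene Xdh (−0.35 ± 0.14; limma adjusted p = 0.366).

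Electron donors and other oxidising enzymes were also in both directions. Of 12 tested, 0 passed the adjusted threshold, 2 were higher (5.36% of all) and 1 was lower (7.61% of all) at an unadjusted limma p under 0.05, and the median was −0.024. Without PhIP 2 there were 0 higher, without PhIP 1 there were 3, and without control 1 there were 2 lower. The list holds the liver cytochromes Cyp3a2 (0.74 ± 0.45) and Cyp2c11 (0.45 ± 0.42), each high on PhIP 2 alone, and the part of liver RNA in other PhIP 2 values was not tested. Cyb5a, the cytochrome b5 that passes electrons to cytochromes P450, read 782.9 and 806.5 in the controls and 969.1 and 998.1 after PhIP (0.30 ± 0.086; limma adjusted p = 0.222, from 0.0389 without control 1 to 0.926 without PhIP 2). Ephx1, the microsomal epoxide hydrolase, gave control values of 132.5 and 117.2 and PhIP values of 180.9 and 202.5 (0.58 ± 0.14; limma adjusted p = 0.177, from 0.00971 without control 1 to 0.898 without PhIP 2). Fmo1, a flavin monooxygenase, stood at 102.3 and 84.8 without exposure and 51.3 and 56.4 with it (−0.69 ± 0.17; limma adjusted p = 0.180, from 0.0432 without control 2 to 0.824 without PhIP 1). For these 3 genes the groups did not overlap, as for 45.8% of all tested probe sets. Over the whole list, 2 genes were higher without overlap (19.8% of all) and 3 were lower (26.0% of all). Por, the reductase that all microsomal P450 enzymes need, read 432.5 and 485.5 in the controls and 484.7 and 492.1 after PhIP in its brightest probe set, with overlap (0.090 ± 0.11). Its dimmer probe set gave 0.47 ± 0.18 (limma adjusted p = 0.346), so the probe sets of Por differed in size.

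Among other conjugating enzymes, 8 were tested, 0 passed the adjusted threshold, and 1 was higher (5.36% of all) and 1 lower (7.61% of all) at an unadjusted limma p under 0.05. There were 0 higher without PhIP 1 or PhIP 2, and 2 lower without PhIP 1 or control 1. Their median was 0.069. Sult1d1, a sulfotransferase of amines and phenols, read 60.6 and 60.2 in the controls and 23.0 and 33.4 after PhIP (−0.90 ± 0.21; limma adjusted p = 0.165, from 0.0427 without control 1 to 0.799 without PhIP 1). The methyltransferase gene Tpmt stood at 43.8 and 49.8 without PhIP and 64.9 and 73.9 with it (0.48 ± 0.18; limma adjusted p = 0.331). Papss1 and Papss2 make PAPS, the sulfate donor that SULT1A1 uses. For Papss2 the control values were 758.3 and 834.3 and the PhIP values 720.9 and 603.1 (−0.27 ± 0.11; limma adjusted p = 0.385, and 0.011 ± 0.32 in its other probe set). The log2 fold change of Papss1 was 0.014 ± 0.14. Ugt8, a glycolipid galactosyltransferase, depended on a single control, reading 360.8 on control 1, 177.8 on control 2, 357.0 on PhIP 1 and 343.0 on PhIP 2 (0.45 ± 0.27; limma adjusted p = 0.522, 0.000351 without control 1 and 0.947 without PhIP 2; the log2 fold change was −0.043 without control 2).

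Of the efflux pumps that export such compounds, 3 of 7 had a tested probe set, and 0 had an unadjusted limma p under 0.05, with 1 lower without control 1 or without PhIP 1. Their log2 fold changes were −0.24 ± 0.17 for Abcc1, −0.032 ± 0.15 for Abcc4 and −0.71 ± 0.39 for Abcc5. Without single arrays Abcc5 ran from −1.29 (PhIP 1 left out) to −0.14 (PhIP 2 left out) and Abcc1 from −0.35 (control 1 left out) to −0.14 (control 2 left out). The sign of Abcc4 turned when the hybridization controls set the scale (0.20) and when arrays were centred on their medians (0.10). Abcg2, a known transporter of PhIP, lay below the filter, at 10.5 and 16.4 in the controls and 12.6 and 14.4 after PhIP.

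**Figure D4:**
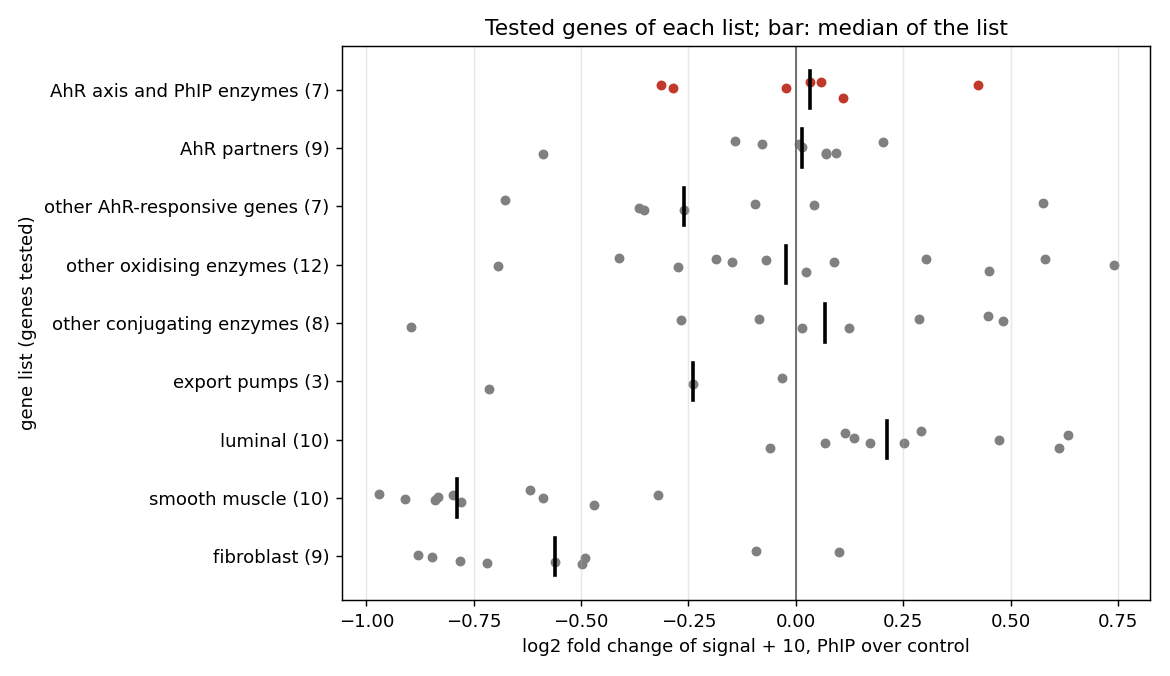
Log2 fold change of signal + 10, PhIP over control, of each tested gene (points, spread vertically at random) with the list's median (bar); the number of genes tested is in brackets. The 7 tested genes of the AhR axis and PhIP enzymes lie between −0.31 and 0.42, while the medians of smooth muscle (−0.79) and fibroblast (−0.56) genes lie below 0.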

How the data were processed

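The values the authors deposited are MAS5 intensities, as named in the submitters' processing notes; the MAS5 version and target are not given in the sources. The array number limits the precision. Affymetrix's own controls (57 probe sets) were excluded. Values were analysed as log2(signal + 10), the constant being 10% of the trimmed mean. Probe sets above the 40th percentile of mean log2 value (18625) were tested with limma 3.58.1 in R 4.3.3 (lmFit, eBayes with trend), two-sided, on 2 residual and 5.67 prior degrees of freedom, with Benjamini-Hochberg adjustment over all tested. The fit was tested on simulated data. All 13 probe sets of the 10 genes were named, and of each list up to 4 tested genes with the largest moderated statistic were taken, of which those the text needs are given. Nqo1, Por, Papss1, Ahrr, Abcg2 and the liver genes were chosen after their values were seen. The genes and lists were chosen with earlier results of these data known. Alternatives were other constants, filters, scalings and variance settings, a replicate block and leaving out each array. Plots used Python 3.11.15 and matplotlib 3.10.9.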

Additional observations from a re-analysis of the deposited data

How the results depend on the processing

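No alternative brought any of the 13 probe sets past the threshold (0 of those tested under each, the replicate block and each left-out array included). At an unadjusted p under 0.05 there was 1 without control 1 (Tiparp) and 1 under each of 4 other scalings and eBayes without trend (Arnt). With the replicate number as a block the lowest limma adjusted p among them was 0.477, and 0 passed. Deviations of same-numbered arrays from their group means correlated at −0.06, so the numbers were not taken as pairs. The block moved the calls over all probe sets from 5 to 35, among them Acta2 (limma adjusted p = 0.0376), Actg2 (0.0376) and Col1a2 (0.0295). The median log2 fold change of all tested probe sets shifted from −0.025 to 0.20 when the hybridization controls set the scale and to 0.11 when arrays were centred on their medians.

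The number of detected probe sets was 7 at the 75th percentile of the reference, 0 against its highest probe set and 6 by mean signal. Chosen after the data were seen, it was 7 without the liver genes and ranged from 2 to 7 without single arrays (7 without PhIP 2). The sign of Sult1a1 turned with the hybridization controls (0.21), median centring (0.11), loess (0.023) and quantiles (0.016), and it ranged from −0.056 to 0.010 without single arrays. Leaving out arrays gave −0.088 to 0.31 for Aldh3a1, −0.0495 to 0.17 for Nat2, −0.14 to 0.20 for the brighter Nat1 probe set, −0.043 to 0.94 for Ugt8 and −0.16 to 0.10 for Abcc4. With the hybridization controls Abcc4 stood at 0.20 and Epas1 at 0.087, and Abcc4 at 0.10 with median centring. The cause of these changes was not tested.

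List medians moved as follows. With the hybridization controls they were 0.24 for AhR partners, −0.032 for other AhR-responsive genes, 0.20 for other oxidising enzymes, 0.30 for other conjugating enzymes and −0.012 for export pumps. With median centring they were 0.15, −0.12, 0.11 and 0.20 for the first 4 of these. Other AhR-responsive genes stood at −0.34 without a constant, −0.32 with 2%, −0.15 with quantiles and −0.15 with loess. Other conjugating enzymes stood at 0.15 with quantiles and 0.16 with loess. Without single arrays the medians ran from −0.050 to 0.077 for AhR partners, −0.45 to −0.078 for other AhR-responsive genes, −0.14 to 0.12 for other oxidising enzymes and −0.049 to 0.22 for other conjugating enzymes.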
